A study of Mus musculus with 8 samples.

Results

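Gene-dense windows are the stretches of the mouse autosomes where protein-coding genes are packed most closely. The autosomes were divided into windows of 500 kb from position 3000000, and a window was taken as gene-dense when at least 15 protein-coding RefSeq genes of the mm10 build had their midpoint in it. This rule uses the annotation alone. It selected 270 of 4816 windows (5.61%), which held 5663 of the 20560 protein-coding genes in the windows (27.5%). The median gene-dense window had 19 genes and the fullest had 42. By the kind of gene they carried, 201 windows were mixed, 49 were sensory (a share of at least 0.5 of their genes were olfactory, vomeronasal, taste or trace amine receptors) and 20 were dominated by another family such as keratins, histones or MHC genes.

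The libraries came from mouse embryonic fibroblasts (MEFs) on day 0 (control cells) and on day 1 of reprogramming by Etv2, an ETS transcription factor that drives endothelial and blood fates. NOMe-seq was run on 250000 cells per sample, on each day with the GpC methyltransferase M.CviPI ("treated") and without it ("untreated"), which gives 4 groups of 2 libraries: day 0 untreated, day 0 treated, day 1 untreated and day 1 treated. All groups are MEFs; the labels do not say how Etv2 was delivered, nor whether the 2 libraries of a group were separate cultures, so p-values measure the spread between these samples, which may be technical. No RNA was measured, so the cell type could not be checked against markers.

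M.CviPI methylates cytosines that follow a guanine wherever the DNA is free of nucleosomes and other bound proteins, and bisulfite sequencing then reads that mark on single molecules. Active promoters, above all those rich in CpG, carry an open stretch just upstream of the start, while DNA elsewhere alternates between nucleosomes and short linkers. Housekeeping genes are typically crowded together in mammalian genomes, and so are the tandem clusters of receptor, keratin and histone genes, most of which are silent in fibroblasts.

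Of the 5663 genes, 4591 matched a sequence in the RefSeq promoter table of mm10 (250 bases before to 50 after the start). The 3428 promoters of mixed windows had a median of 5 CpG and 8 GpC per 100 bases, and the 835 promoters of sensory windows had 0.333 and 2.67. The octamer CCGGAAGT, an ETS-type motif, was found on either strand in 5.60% of gene-dense promoters and in 5.46% of all 16457 promoters; in mixed windows it was in 6.88% and in sensory windows in 0.958%. Such a match describes the letters only. Within these promoters every covered site (100% in each library) was the cytosine of a GpC not followed by G, on one strand or the other. The 2 promoters below are among the 4 with the most treated calls and differ in CpG content: Faap100, whose protein belongs to the Fanconi anaemia core complex, lies in a mixed window and is CpG-rich, and Asb8, an ankyrin-repeat and SOCS-box gene, lies in a sensory window with olfactory receptors and has few CpG. Both are on the minus strand and are written 5′ to 3′ toward the start, outside the annotated gene, with each GpC that had a covered cytosine in any library in capitals.
Faap100 promoter, chr11:120378747-120378996: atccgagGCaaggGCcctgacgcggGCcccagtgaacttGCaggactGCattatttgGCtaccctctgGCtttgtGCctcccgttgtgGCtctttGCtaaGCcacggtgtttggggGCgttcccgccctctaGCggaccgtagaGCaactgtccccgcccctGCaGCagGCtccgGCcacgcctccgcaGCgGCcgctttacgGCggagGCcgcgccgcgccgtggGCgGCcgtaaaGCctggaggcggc
Asb8 promoter, chr15:98165597-98165828: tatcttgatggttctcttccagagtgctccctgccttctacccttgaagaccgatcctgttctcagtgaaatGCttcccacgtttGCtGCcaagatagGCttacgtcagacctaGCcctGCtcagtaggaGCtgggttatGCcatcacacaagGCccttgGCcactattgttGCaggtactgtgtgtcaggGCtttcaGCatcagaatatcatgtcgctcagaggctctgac

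The Faap100 stretch holds 37 GpC and 25 CpG in 250 bases, and 25 of its GpC were covered. In the day 0 treated libraries 49 of 57 calls (86.0%, exact 95% interval 74.2 to 93.7) and 42 of 43 calls (97.7%, 87.7 to 99.9) were methylated (each read counts once at each site it covers). The only untreated calls, 12 on day 0, were all unmethylated (upper limit 26.5%), and no day 1 library covered it. The Asb8 stretch holds 17 GpC and 4 CpG in 232 bases. It was methylated in 6 of 22 treated calls on day 0 (27.3%, 10.7 to 50.2) and in 10 of 47 on day 1 (21.3%, 10.7 to 35.7), each from 1 library. These intervals cover counting error only, since reads of one molecule and neighbouring sites are not independent. Most calls in the Faap100 stretch were methylated on day 0, and the intervals of the Asb8 stretch included the level between genes in gene-dense windows on the same day (30.1% and 31.4%).

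The gene-dense windows had 51015 to 103760 covered sites and 163607 to 329484 calls per library, a density of 0.378 to 0.769 sites per kb against 0.169 to 0.397 in the other 4546 windows. From 87.7% to 88.4% of the sites had exactly 3 reads, the lowest number in the files. No gene-dense site had more than 75 reads, so the limit of 100 reads per site removed none there, while it removed 242 to 322 sites per library elsewhere. Replicates shared few sites, 1228 of the 57506 and 56091 covered in the day 0 treated libraries, and levels were therefore pooled over windows or gene classes. Gene-dense windows held 11.6% ± 0.119 (SD, n = 2) of the covered sites in the day 0 untreated group, 10.2% ± 0.0599 in the day 0 treated group, and 10.3% in both day 1 groups (SD 0.0403 untreated and 0.0287 treated). Without the enzyme the share fell from 11.56% and 11.72% on day 0 to 10.32% and 10.38% on day 1. With the enzyme it rose from 10.21% and 10.13% to 10.32% and 10.36%. Pooled over treated and untreated libraries, day 1 was 0.561 points below day 0 (exact permutation p = 0.43, 4 against 4 libraries), or -0.344 and -0.288 points without day 0 untreated replicate 1 or 2. With chromosomes 3, 12 and 13 left out, the difference was -0.955 points and the days no longer overlapped (exact permutation p = 0.0286, the smallest possible).

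With the enzyme, the gene-dense windows were methylated in 30.6% and 30.4% of calls in the day 0 libraries and in 31.8% and 31.4% in the day 1 libraries. Both day 1 libraries were above both day 0 libraries. The means were 30.5% ± 0.119 (SD, n = 2) and 31.6% ± 0.344, 1.08 points higher on day 1 (exact permutation p = 0.33, the smallest possible with 2 against 2). Without the enzyme the level was 1.86% and 1.92% on day 0 and 1.06% in both day 1 libraries. The difference of the means, 1.89% ± 0.0467 and 1.06% ± 0.00364, was -0.833 points (exact permutation p = 0.33). The treated and untreated changes differed by 1.92 points (exact permutation test, days exchanged separately with and without M.CviPI, p = 0.0556, the smallest possible). None of the 9 permutation tests of the design passed after Benjamini-Hochberg adjustment, and only the share of covered sites could have gone below 0.05 before adjustment (lowest adjusted p = 0.50). All sizes below are therefore read against the spread between the 2 libraries of a group.

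**Figure D1:**
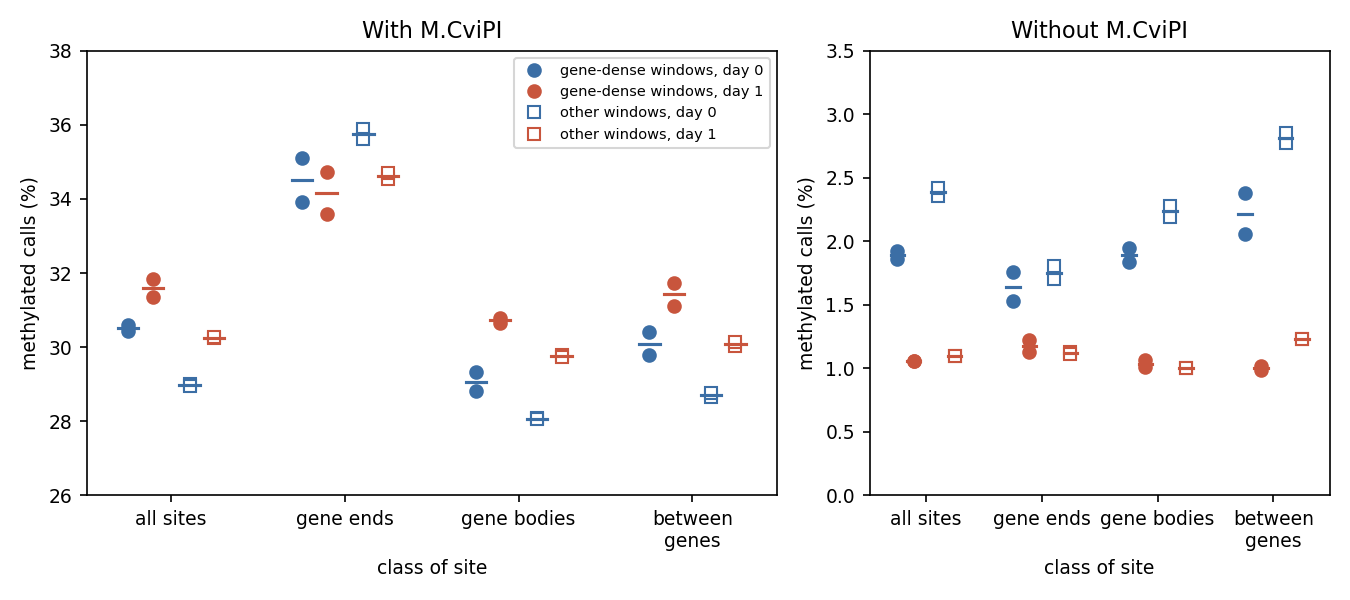
Share of methylated calls per library by class of site, with M.CviPI (left, axis from 26%) and without it (right). Filled circles are gene-dense windows, open squares all other windows, blue is day 0, red is day 1, and bars are means of 2 libraries. In gene bodies and between genes the gene-dense circles lie above the squares of the same day with the enzyme, and at gene ends they overlap the squares or lie below them.

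Gene-dense windows had a higher treated level than the rest of the autosomes, but by little. In all 4 treated libraries they lay above the other windows, by 1.60, 1.49, 1.60 and 1.09 points (mean 1.45, exact sign-flip permutation p = 0.125, the smallest possible with 4 libraries). Against the 1089 windows without a gene midpoint, at 26.4% on day 0 and 28.3% on day 1, the excess was 3.72 points, again in 4 of 4 libraries. The excess over the other windows was 1.55 ± 0.0777 points (n = 2) on day 0 and 1.35 ± 0.357 on day 1 (change -0.202, exact permutation p = 0.67), and this small change became 0.0505 without day 1 treated replicate 2. The excess depends on the limit on reads: without it the other windows keep their deeply read sites, and the difference was -0.303 points (exact permutation p = 0.25). Without the enzyme gene-dense windows were lower than the others in 4 of 4 libraries, by 0.271 points on average.

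Within the selected windows the level did not follow the number of genes. Over the 245 windows with at least 50 calls in each library, Pearson's r between gene number and level ran from -0.0381 to 0.0654 in the 4 treated libraries. Pooled by number, windows of 15 to 19, 20 to 24 and 25 or more genes had 30.8%, 30.5% and 30.1% on day 0 and 31.4%, 31.6% and 31.8% on day 1, and those of 10 to 14 genes had 29.2% and 30.7%. Just at the threshold, the 45 windows of 14 genes had 29.8% ± 0.411 and 30.7% ± 0.267 (n = 2) and the 32 windows of 15 genes had 30.2% ± 0.0750 and 31.0% ± 0.0991. The 38 windows of 16 genes, which include the chromosome 17 MHC window, had 33.5% ± 0.218 and 32.7% ± 0.382.

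By class of site, the excess over the other windows was steadiest in gene bodies. Gene ends, the sites within 1000 bp of either end of an annotated gene, were the most accessible class in gene-dense windows, with 35.1% and 33.9% on day 0 and 34.7% and 33.6% on day 1. The days overlapped there (34.5% ± 0.832 and 34.2% ± 0.798, n = 2, exact permutation p = 0.67). Gene bodies had 28.8% and 29.3% on day 0 and 30.8% and 30.7% on day 1, and the DNA between genes had 30.4% and 29.8%, then 31.7% and 31.1%. In these 2 classes the days did not overlap, and day 1 was higher by 1.66 and 1.33 points. Compared with the same classes of the other windows, bodies were higher by 0.983 points and the DNA between genes by 1.36 points, in 4 of 4 libraries each (exact sign-flip permutation p = 0.125). The value between genes came largely with 1 MHC window on chromosome 17, described below: without it, an alternative chosen after seeing the data, the DNA between genes was higher by 0.347 points, in 3 of 4 libraries (-0.171 to 0.996 points, exact sign-flip permutation p = 0.375), and bodies by 0.987 points in 4 of 4. Gene ends were 0.842 points lower on average and higher in only 1 of 4 libraries (exact permutation p = 0.25). The mix of classes differed as well. In day 0 untreated replicate 1, gene ends were 25.2% of the sites in gene-dense windows and 11.2% in the other windows. The part of this mix in the excess over all sites was not tested.

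The step from gene body to gene end was 5.45 ± 1.21 points on day 0 and 3.43 ± 0.706 on day 1 (n = 2), a change of -2.02 points (exact permutation p = 0.33). In the other windows the step was 7.68 ± 0.166 and 4.85 ± 0.152 points. With gene ends taken as 500 bp the change in gene-dense windows was -2.96 points, and with 2000 bp it was -0.707 points. It was -1.16 points without day 0 treated replicate 1. Without the enzyme the ends differed from the bodies by -0.248 ± 0.241 points on day 0 and 0.140 ± 0.102 on day 1.

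At transcription starts the gene-dense windows showed the open stretch of active promoters. For the 5414 gene-dense starts of the RefSeq table, the centre from 150 bp before to 50 bp after the start was methylated in 62.7% and 58.8% of calls in the day 0 treated libraries, and in 53.0% and 54.4% in the day 1 treated libraries. The flanks, 500 to 1000 bp on each side, had 36.7% and 33.7% on day 0 and 33.7% and 34.0% on day 1. The centre thus stood 25.6 ± 0.634 points above the flanks on day 0 and 19.8 ± 0.778 on day 1 (n = 2), and these values did not overlap (exact permutation p = 0.33). At the 4591 transcript ends no such stretch was seen: the excess was 1.74 ± 2.55 and 0.592 ± 0.237 points. Starts in the other windows had 24.7 ± 0.967 and 21.9 ± 0.645 points, and gene-dense starts were higher in 1 of 4 libraries (exact sign-flip permutation p = 0.50).

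Which starts were read differed between the days. Of the gene-dense starts with treated calls in the centre, 112 were covered on both days, 490 on day 0 only and 493 on day 1 only. At the 112 shared starts, each weighted alike on both days, the level was 59.0% on day 0 and 58.8% on day 1, from 1486 and 1388 calls. Starts read on day 0 only had 60.8% and those read on day 1 only had 52.5%. The starts covered on both days differed by -0.205 points, and the centre over all starts by -7.10 points. The shared starts are a minor part of those read, and their values are 1 per day, with no spread between libraries. The part of coverage in the change over all starts was not tested. Taken over both ends of all protein-coding genes, with no strand, the centre excess was 19.7 ± 2.81 points on day 0 and 12.2 ± 1.10 on day 1 (change -7.51, exact permutation p = 0.33).

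**Figure D2:**
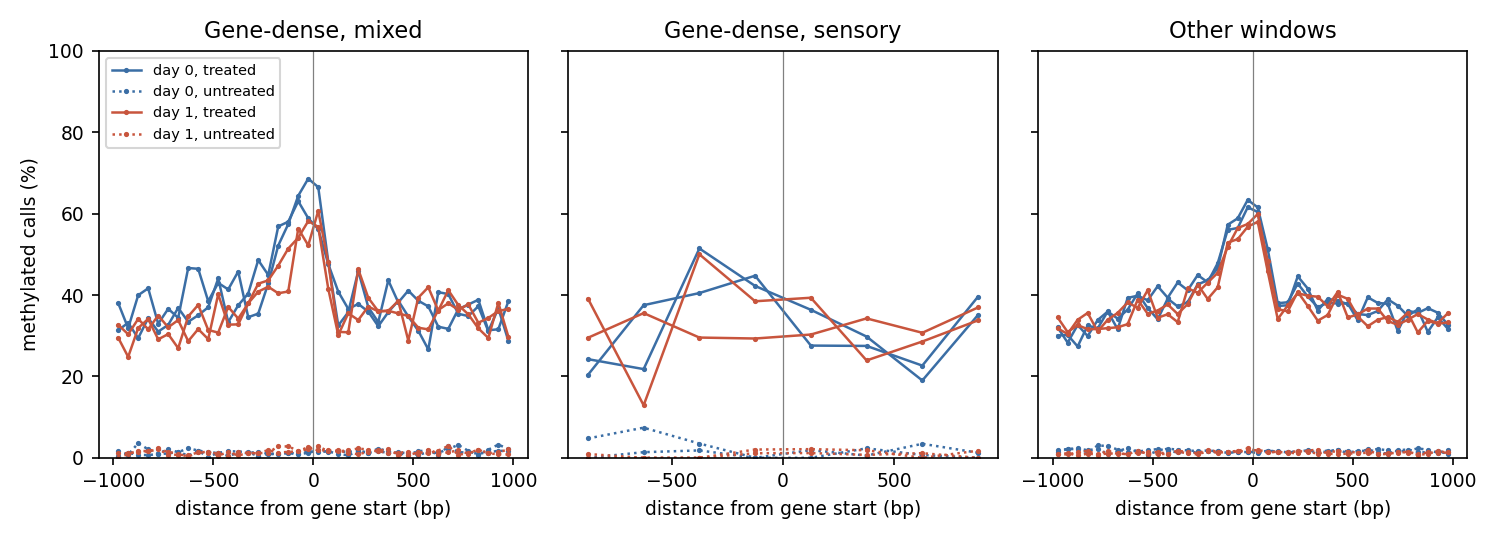
Share of methylated calls by distance from the gene start (negative is upstream), 1 line per library, in bins of 50 bp (250 bp for sensory windows), leaving out bins under 20 calls. Solid lines are treated and dotted lines untreated libraries, blue is day 0 and red is day 1. Mixed gene-dense windows and other windows peak at the start; the sparse sensory lines have no shared peak there and cross between libraries.

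CpG content ordered the promoters in the gene-dense windows. With under 2 CpG per 100 bases (1845 promoters) the treated level over the 300 bases was 35.2% ± 4.801 (n = 2) on day 0 and 29.5% ± 1.52 on day 1. With 2 to under 6 (1216 promoters) it was 48.6% ± 5.54 and 44.2% ± 5.99. With 6 or more (1530 promoters) it reached 67.1% ± 1.95 and 62.3% ± 0.922, and the libraries of the lowest class lay below those of the highest throughout. The same CpG-rich class had 62.9% ± 0.718 and 61.9% ± 1.98 in the other windows.

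The 3 kinds of gene-dense window differed in level. Mixed windows, which hold most of the calls, had 30.4% ± 0.0325 (n = 2) on day 0 and 31.5% ± 0.434 on day 1. Sensory windows had 28.2% and 27.2% on day 0 and 29.6% and 30.5% on day 1, below the mixed ones in 4 of 4 libraries by 2.09 points on average (exact sign-flip permutation p = 0.125). Their gene ends had 27.8% and 29.4%, then 30.4% and 33.4%, while those of mixed windows had 35.5% and 34.3%, then 34.9% and 33.8%. The difference at gene ends was 6.33 ± 1.99 points on day 0 and 2.41 ± 2.94 on day 1. Depth was much lower in sensory windows, with 6736 to 16244 calls per library against 148278 to 298454. At their 856 starts the centre rested on 24 to 153 treated calls per library and had 41.2% and 50% on day 0 and 29.8% and 33.9% on day 1, 19.4 points below mixed windows on average.

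The 20 windows of other families had 34.6% ± 1.41 on day 0 and 35.1% ± 0.481 on day 1, the highest of the 3 kinds, and their DNA between genes had 39.5% on both days. The high level came with 1 window. At chr17:36000000-36499999, which holds 16 genes of the MHC class I H2-T and H2-M10 groups and their neighbours, 51.3% ± 2.70 of calls were methylated on day 0 and 46.6% ± 1.08 on day 1, with 6.01 reads per site. Without it the other-family windows had 29.0% ± 0.964 and 31.3% ± 0.113, and between their genes 27.9% ± 0.245 and 31.8% ± 1.14. The opposite case was chr2:181500000-181999999, a window of 17 mixed genes from Tpd52l2 to Gm14496 that includes the endothelial regulator Sox18. It had 20.8% ± 0.886 and 23.9% ± 1.205, with 8.42 reads per site. These 2 windows were chosen after their values were seen; the part of read depth in their levels was not tested. Without both windows the gene-dense level was 1.14 points higher on day 1 and exceeded the other windows by 1.36 points.

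The spread between gene-dense windows was partly shared by the libraries. Over the 245 windows the treated levels had an SD of 4.33 and 4.77 points in the day 0 libraries and 3.74 and 3.79 in the day 1 libraries, against 2.27 and 2.30, then 1.94 and 1.97, from independent calls. Between replicates the window levels correlated with r = 0.32 on day 0 and 0.31 on day 1, and between the day means with r = 0.40. Each window is 1 point of these correlations, and windows share libraries and differ in depth. Over the 198 mixed windows alone the replicates had r = 0.19 and 0.30. The SD of a single library within a replicate pair, over these windows, was 3.76 points on day 0 and 3.14 on day 1. Untreated levels of the windows had r = 0.13 between the day 0 replicates and -0.0947 between those of day 1.

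**Figure D3:**
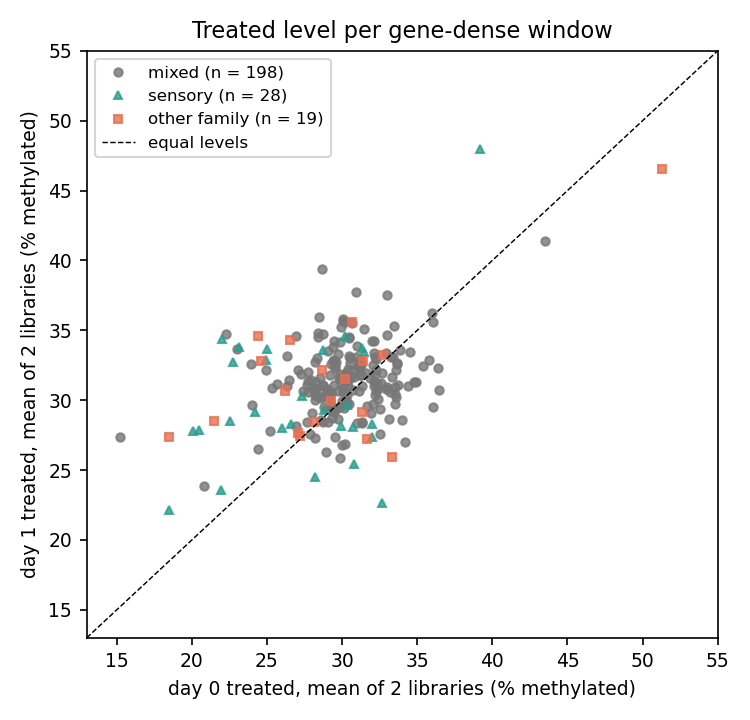
Treated level of each gene-dense window with at least 50 calls in every library, day 0 against day 1 (means of 2 libraries, %). Grey circles are mixed, green triangles sensory and orange squares other-family windows; the dashed line marks equal levels. The windows gather around the general level without a tight line, and the orange square at the upper right is the chromosome 17 window with 51.3% and 46.6%.

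Tests by window asked where the level changed between the days. With the enzyme, edgeR's quasi-likelihood test called 0 of 245 gene-dense windows at a Benjamini-Hochberg adjusted p under 0.05, beside 1 of all 3951 windows tested (0.0253%). At an unadjusted p under 0.05 there were 10 gene-dense windows and 144 of all (3.64%). The limma fit called 0 gene-dense windows, with 0 at that p. When weighted by calls, an alternative chosen after seeing the data, limma called 3 gene-dense windows beside 14 of all 3951. In log2 odds the median window changed by 0.09 among the gene-dense and by 0.10 among all, and 160 of 245 gene-dense windows leaned upward beside 2596 of all 3951. On simulated data over the 3951 windows edgeR found 7% of changes of 0.5 and 59% of changes of 1 in log2 odds, so that small changes of single windows were not detectable at this depth.

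The windows nearest to the threshold did not pass. At chr2:121000000-121499999, with 21 genes including Trp53bp1, Tubgcp4 and Pdia3 (a protein disulfide isomerase of the endoplasmic reticulum), the treated level was 22.3% ± 4.39 (n = 2) on day 0 and 34.8% ± 0.144 on day 1 (edgeR adjusted p = 0.993). At chr10:127000000-127499999, 25 genes including Cdk4, Ddit3 and Gli1, it was 26.9% ± 2.27 and 34.6% ± 3.43. At chr10:81000000-81499999, 32 genes including Eef2 and Map2k2, it was 28.4% ± 1.36 and 34.5% ± 0.570. Their adjusted p ranged from 0.0703 to 1.00 over the 12 alternatives. Downward, the windows with small p included the chromosome 17 MHC window and a window of clustered protocadherins, with 33.3% ± 1.09 and 25.9% ± 1.59, and neither passed.

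The 3 windows with the most genes did not stand apart together. At chr11:69500000-69999999, with 42 genes including Polr2a (the largest subunit of RNA polymerase II), Eif4a1 and Cd68, the treated level was 32.1% ± 1.93 and 31.4% ± 0.0581. At chr11:99500000-99999999, 40 genes of the keratin-associated cluster, it was 32.7% ± 0.263 and 33.2% ± 1.30. At chr13:23500000-23999999, 38 genes with the main cluster of replication-dependent histones, it was 24.6% ± 6.96 and 32.8% ± 2.88 from only 735 treated calls. None of the 3 passed the treated test (edgeR adjusted p = 0.993 or above).

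Without the enzyme many gene-dense windows fell. In that comparison 69 of 245 gene-dense windows were called, all downward, beside 1000 of 3951 (25.3%), again all downward. The median change was -0.86 in log2 odds in gene-dense windows and -1.21 in all. When each library was centred on its own median over windows, 2 gene-dense windows were called, both upward (0.582% of all windows in either direction), and the gene-dense median became 0.36. Gene-dense windows thus lay lower on day 1 as the libraries as a whole did, and by less than the median window. Leaving out either day 0 untreated library lowered the count. A fit on the 4 untreated libraries alone called 21, beside 452 of all 4055 windows tested.

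A net test, which asks whether the treated change differs from the untreated one, called 65 gene-dense windows, all upward, beside 960 of 3951 (24.3%). After centring 1 gene-dense window was called, downward (0.177% of all windows in either direction). Without a single library the count was 34 or 39 (day 0 untreated replicate 1 or 2) and 32 or 30 (day 1 treated replicate 1 or 2). Of the 5 with the smallest p, 4 are named here. At chr17:46500000-46999999, with 20 genes including Srf, the serum response factor, and Ptk7, the untreated level went from 2.66% ± 0.797 to 0.667% ± 0.0781 while the treated level was 31.2% ± 1.19 and 30.7% ± 0.892 (log2 odds 1.96, edgeR adjusted p = 0.00014, range over alternatives 3.43e-05 to 0.583). At chr2:25000000-25499999, 34 genes including Grin1 and Abca2, the untreated level went from 3.01% to 0.979% and the treated level from 26.4% to 31.0%. At chr11:100000000-100499999, the keratin cluster with Krt14, Krt17 and Krt19, the untreated values were 3.71% ± 3.13 and 0.537% ± 0.234. At chr15:78500000-78999999, 15 genes including Rac2 and Lgals1, the untreated values were 2.04% ± 0.364 and 0.845% ± 0.148. In each of these windows the untreated change passed its test and the treated change did not, and the net change did not pass after centring. The keratin window was also lost without day 0 untreated replicate 2 (edgeR adjusted p = 0.103).

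Neighbouring sites gave the nucleosome pattern. Pairs of sites 1 to 30 bp apart had correlated levels in the treated gene-dense windows (r = 0.57 ± 0.00902 on day 0 and 0.56 ± 0.0104 on day 1, n = 2). From 70 to 100 bp r was -0.0413 and -0.0615 on day 0 and -0.0997 and -0.128 on day 1, and from 160 to 190 bp it was 0.250 and 0.156, then 0.188 and 0.114. All 4 treated libraries were thus below 0 at the shorter distance and above it at the longer. The trough of r, smoothed over neighbouring bins, was centred at 85.5 bp in each of them. The smoothed peak lay at 165.5 and 245.5 bp in the day 0 libraries and at 165.5 and 175.5 bp in the day 1 libraries. The swing, the longer minus the shorter, was 0.254 ± 0.0526 on day 0 and 0.265 ± 0.0322 on day 1 (change 0.0106, exact permutation p = 1.00). This small change became -0.0266 without day 0 treated replicate 2 and -0.0122 without day 1 treated replicate 1, 0.0478 and 0.0333 without the other two treated libraries, 0.0785 with 10 genes per window and 0.169 with sites of at least 4 reads (exact permutation p = 0.33 in each of these last settings). At 70 to 100 bp day 1 differed from day 0 by -0.0624, and the libraries of the days did not overlap. Untreated libraries had a swing of -0.0896 ± 0.0563 and -0.0779 ± 0.00634.

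In the other windows the swing was 0.220 ± 0.0144 and 0.323 ± 0.00451. Gene-dense windows were above them in both day 0 libraries and below them in both day 1 libraries, with differences from -0.0842 to 0.0617 (mean -0.0118, exact sign-flip permutation p = 0.75). The pairs were far fewer in gene-dense windows, 2935 to 5214 per treated library at 160 to 190 bp. Mixed windows had 0.220 ± 0.0549 and 0.262 ± 0.0355. Sensory and other-family windows had 85 to 279 such pairs per treated library, and the sensory swing ran from -0.119 to 0.432, too wide to read.

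**Figure D4:**
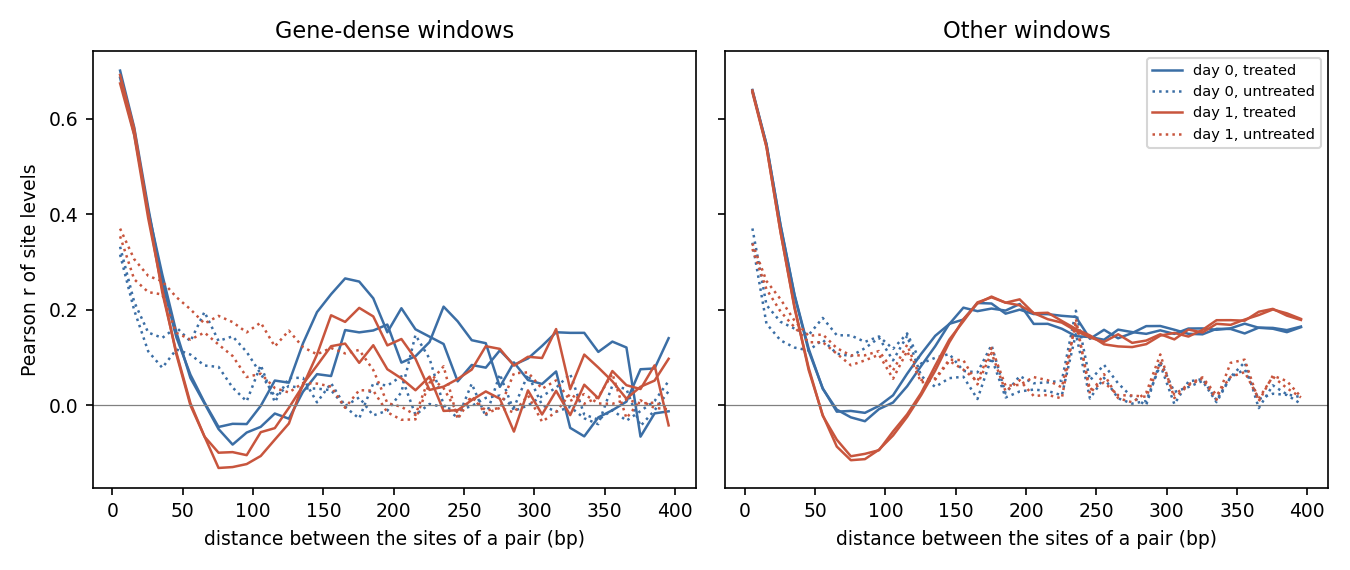
Pearson correlation between the levels of 2 sites by their distance in bins of 10 bp, 1 line per library, in gene-dense (left) and other windows (right). Solid lines are treated, dotted lines untreated, blue is day 0 and red is day 1. Treated lines dip below 0 near 85 bp and rise again toward 170 bp, while untreated lines decline without that dip.

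Gene families differed at their ends. Olfactory receptors (827 genes in gene-dense windows), which are silent outside sensory neurons, had 24.5% and 28.7% on day 0 and 27.4% and 29.8% on day 1, from 771 to 1028 treated calls per library. Keratins and keratin-associated proteins (109 genes) had 28.4% ± 2.07 (n = 2) and 31.4% ± 1.83, and MHC genes (35) had 30.5% ± 0.593 and 28.4% ± 0.101. Zinc finger genes of the Zfp series (135), transcription factors expressed in many tissues, had 37.7% ± 0.0350 on day 0 and 32.6% ± 1.66 on day 1. Ribosomal protein genes (33) had 32.5% ± 1.69 and 28.1% ± 2.003. Clustered protocadherins (57), adhesion proteins of neurons whose genes overlap each other, had 35.7% and 32.9% on day 0 and 24.8% and 26.7% on day 1. Ly6 genes (14) had 30.1% and 31.6%, then 27.0% and 30.1%. The days did not overlap in 6 of the 18 families with treated calls at their ends in every library, the protocadherin, zinc finger, ribosomal protein, keratin, MHC and Ly6 genes (exact permutation p = 0.33 in each, the smallest possible). This p is also the share of label arrangements that separate the days, and 6 of 18 is no more than that share. The keratins were higher on day 1 and the rest of these families lower. Replication-dependent histones (57) had 21 to 67 treated calls per library, too few to compare.

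**Figure D5:**
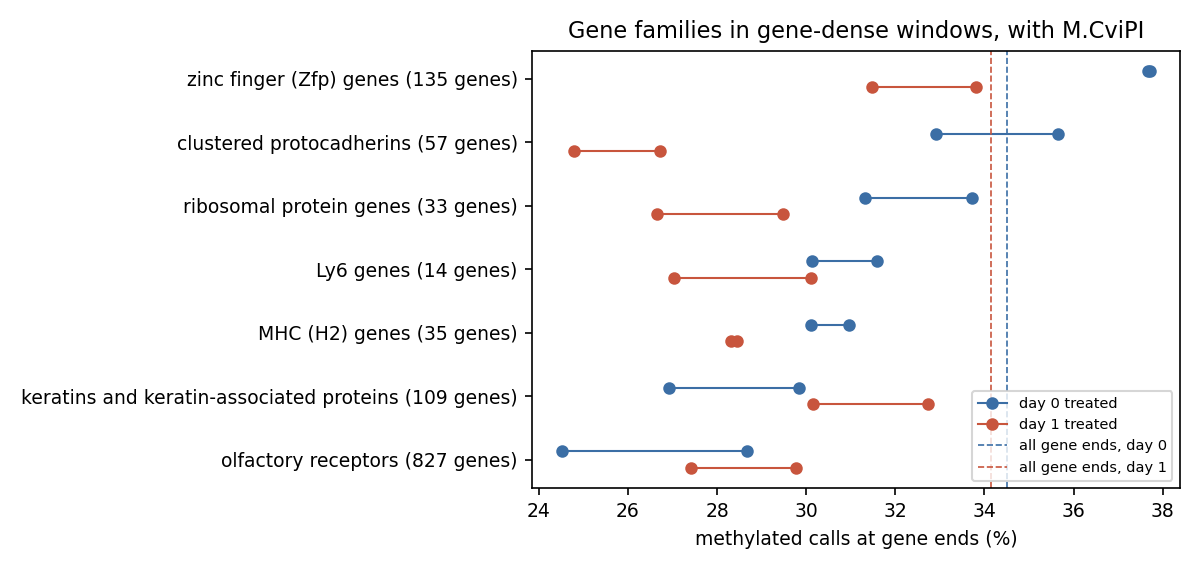
Share of methylated calls within 1000 bp of the gene ends of families in gene-dense windows with at least 100 treated calls in each library. Each point is a library, joined within a day; blue is day 0, red is day 1, and dashed lines are all gene ends of the gene-dense windows. Olfactory receptor, keratin, MHC, Ly6 and ribosomal protein genes lie left of the dashed lines, and zinc finger genes lie right of them on day 0.

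Over whole gene loci (the gene with 1000 bp on each side), 765 of the 5663 gene-dense genes had 20 calls in every library. With the enzyme 0 of them were called by edgeR, beside 0 of 4911 loci tested (0%), with 33 at an unadjusted p under 0.05 beside 160 of all (3.26%), and limma called 0 with 16 at that p. The median was 0.07 in log2 odds, beside 0.10 over all loci. Without the enzyme 6 gene-dense loci fell and none rose, beside 4.44% of all loci falling and 4.48% called in either direction. At an unadjusted p under 0.05 there were 72 gene-dense loci, beside 17.9% of all, and limma called 58 of the 765 beside 839 of all 4911. Among the endothelial and blood genes, 15 of 41 listed lie in gene-dense windows, among them Etv2 itself, Sox18, Klf2, Notch1 and Eng. Their pooled ends had 32.5% and 40.6% on day 0 and 32.8% and 27.4% on day 1, which overlapped, and 0 of the 3 tested loci were called. Over their whole loci the values were 27.9% and 28.2%, then 30.3% and 33.6%. Fibroblast and matrix genes (6 of 31, including Col1a1, Thy1 and Junb) had 47.6% and 38.04%, then 34.1% and 26.7%, from 15 to 138 calls, and none could be tested by locus. Housekeeping genes (10 of 20, including Gapdh, Eef2 and Tuba1b) had 55.7% and 37.3%, then 35.9% and 40.3%, and 0 of 1 tested locus was called. Over their whole loci the values were 24.2% and 24.8%, then 29.98% and 29.6%, which did not overlap (exact permutation p = 0.33). All gene-dense loci had 30.9% and 30.7%, then 32.1% and 31.5%, which did not overlap either.

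Single genes could be followed only where coverage was high: 4400 of the 5663 genes had any treated call at their ends, 707 had some in each treated library and 37 had 20 in each. Taco1, a translational activator of mitochondrial cytochrome c oxidase, was read most deeply (16.3 reads per site) and had 52.4% and 56.6% of calls methylated on day 0 and 70.2% and 48.8% on day 1. Its day 1 libraries enclose the day 0 ones. Its untreated ends had 5.03% ± 2.69 (n = 2) and 2.36% ± 1.14.

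Eef2, the elongation factor that moves the ribosome along, had 25% and 33.3% on day 0 and 32.0% and 20.5% on day 1. Dapk3, a death-associated kinase next to Eef2 whose end windows share sites with it, had 23.4% and 36.3%, then 28.9% and 25.6%. In both genes the days overlapped. Among the 12 genes, only Faap100 had days that did not overlap. That 1 of 12 is no more than the share of label arrangements that separate the days (0.33). Faap100, whose promoter is printed above, had 58.0% and 85.2% on day 0 and 38.9% and 11.1% on day 1. Each day 1 library had 36 calls there and none in the printed promoter. Of the 131 and 61 day 0 calls, 57 and 43 lay in that promoter, so the days were read at least partly at different sites.

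The other genes with the most calls were Lrrc24, Abca17, Dusp7, Creld1, Dohh, Rex1bd, Krt1 and Prrt3. Lrrc24 ran from 7.84% to 59.6% between its day 1 replicates and Rex1bd from 6.06% to 54.8% between its day 0 replicates. Creld1 and Prrt3 lie side by side and share sites; Creld1 had 38.9% and 25%, then 36.5% and 50.9%, and Prrt3 had 35.7% and 30%, then 30% and 35.3%. Krt1, a keratin of differentiating epidermis, had 38.9% and 20%, then 27.5% and 36.4%. Of the 12 genes, 7 had 20 calls over the locus in every library, and none was called (edgeR adjusted p = 0.999).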

How the data were processed

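GpC methylation was called in 8 NOMe-seq libraries, 2 per group, sequenced as 150 bp paired-end reads from 200-500 bp fragments, per the labels. The authors deposited, for each cytosine on mm10, the fraction of methylated reads and, in a second column, the count of reads; the columns carry no header, so their values identified both units. Fraction times count was whole within rounding at 100% of sites. No aligner, caller or duplicate step is given in the sources used here.

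Sites of at most 100 reads were assigned to 500 kb windows and to gene ends (1000 bp), bodies or the DNA between, using 33073 protein-coding and lncRNA genes of RefSeq. The members, families and lists were chosen with earlier results of these data known. Methylated and unmethylated counts per window (50 calls in every library) or gene locus (20 calls) were fitted with edgeR 4.0.16 quasi-likelihood (R 4.3.3), with a term per library and a methylation term per group over all 8 libraries. limma 3.58.1 on log2 odds was an alternative. P-values were Benjamini-Hochberg adjusted over all windows or loci (threshold 0.05). Permutation tests were exact and two-sided. The window fits were tested on simulated data with a between-library SD of 0.15 in natural log odds: edgeR made 5 false calls among 3751 unchanged windows, limma found no changes, and weighted limma found 15% and 63% of the changes of 0.5 and 1 with 29 false calls.

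Windows named are the 3 with the most genes, the 3 with the smallest treated p in each direction, which did not pass, and the 5 smallest p of the net test; 1 window of each of the last 2 kinds, the downward and the net, is not reported here. Genes named are the 12 with the most treated calls at their ends. Of the 4 promoters with the most treated calls, sequence is shown for those with covered sites outside the annotated gene.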

Additional observations from a re-analysis of the deposited data

Results flagged for a closer look

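In 65 of 245 gene-dense windows (26.5%) the treated change between the days differed from the untreated one by edgeR's test. Among all windows 24.3% passed, a share close to that of the gene-dense ones. All 65 were upward. The untreated level of the gene-dense windows changed by -0.833 points between the days and the treated level by 1.08 points. Centring the libraries left 1 such window. The part of a shift of whole libraries was not tested beyond that.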

How the results depend on the processing

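Of 196 alternative values, 174 kept their direction and their side of the threshold. Among the 9 permutation tests of the design, only that of the share of covered sites could go below 0.05. For the others the side was fixed in advance, and only the direction could change. The excess of gene-dense over other windows turned to -0.303 points without the limit on reads. Its change between the days turned to 0.207 without that limit, to 0.0544 with 10 genes per window, to 0.173 with 20, and ranged from -0.455 to 0.0505 with a library left out. The swing change ranged from -0.0266 to 0.0478 with a library left out, and up to 0.169 over all alternatives. The share of sites, pooled over treated and untreated libraries, went below 0.05 before adjustment (-0.955 points) without chromosomes 3, 12 and 13. Untreated calls (69) became 112 with limma, 26 with weighted limma (chosen after seeing the data), 2 with centred libraries and 21 with 4 libraries. Among all windows the same settings called 2087, 453 and 23 of 3951, and 452 of 4055. Net calls (65) became 40, 39 and 1 with the first 3 of these settings, beside 799, 599 and 7 of all windows. Treated calls became 3 with weighted limma, beside 14 of all windows. With a library left out, untreated calls ranged from 36 to 63, net calls from 30 to 56 and treated calls stayed at 0. The cause of these differences was not tested, apart from the fewer samples of the fits that leave some out.

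Replicate numbers did not pair the libraries: over 3951 windows, deviations of same-numbered libraries correlated between -0.0141 and 0.0157. With a replicate block the calls were 0 treated, 69 untreated and 63 net, the treated rise stayed at 1.08 points, and no result changed direction or side of its threshold; with 2 pairs an exact test cannot go below p = 0.50. The depth, mostly 3 reads per site, limits single sites and genes, and 2 libraries per group limit every permutation test.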

Other observations

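Without the enzyme, the CpG-rich promoters were lower on day 0 than on day 1, while the windows as a whole were higher. In the CpG-rich promoters of gene-dense windows (6 or more CpG per 100 bases) the untreated level was 1.12% ± 0.233 (n = 2) on day 0 and 2.63% ± 0.424 on day 1, and these libraries did not overlap, while the same class of the other windows had 1.43% ± 0.106 and 1.86% ± 0.0839. Gene-dense promoters of under 2 CpG had 1.37% ± 0.373 and 0.807% ± 0.341, and those of 2 to under 6 had 1.30% ± 0.0976 and 1.55% ± 0.0995. At gene-dense starts the centre had 1.39% ± 0.0342 and 2.08% ± 0.257 without the enzyme, and the flanks had 1.59% ± 0.180 and 1.31% ± 0.0913. In the part of the Csnk1e promoter covered without the enzyme on day 1, 3 of 9 calls were methylated (exact 95% interval 7.49 to 70.1). These came from 1 library and 3 neighbouring sites of 3 reads, each with 1 methylated. The interval covers counting error only, since calls of the same read are not independent. The 26 untreated calls of day 0 lay at other sites of this promoter, and 0 were methylated. These are values noticed in the data, and none of them was tested beyond the 2 libraries per group.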
